A study of Mus musculus with 54 samples.

Results

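The genes described here carry glucose into the cell, trap it as glucose 6-phosphate and handle pyruvate and lactate at the far end of glycolysis. They are the glucose transporters Slc2a1 and Slc2a3, the hexokinases Hk1 and Hk2, glucose 6-phosphate isomerase (Gpi1), the lactate dehydrogenase subunits Ldha and Ldhb, the monocarboxylate transporters Slc16a1 and Slc16a3, and the pyruvate dehydrogenase kinase Pdk1. They were taken by name, 10 of the 45802 genes of the deposited table, and were chosen with earlier results of these data known. All 10 passed the filter on low values, at least 0.5 RPKM in at least 2 samples. RPKM divides a gene's reads by its length and by the library total, so levels can be compared between genes.

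RNA was measured in mouse T helper 17 (Th17) cells, CD4+ T cells that make interleukin 17, grown from CD4+ CD25- T cells of the spleen and lymph nodes of C57BL/6 mice. All groups shared 4 days of culture on plate-bound anti-CD3e (10 µg/mL) with anti-CD28 (1 µg/mL), anti-IFN-γ and anti-IL-4 (5 µg/mL each), TGF-β1 (2 ng/mL), IL-6 (7.5 ng/mL) and IL-1β (50 ng/mL). The groups differed in a 96 h exposure to the vehicle DMSO, to Arg C at 60 mM (unit as labelled) or to linezolid at 100 µM. On day 4 live CD4+ cells were sorted on the dye CellTrace Violet, which is diluted at each division, into cycle 2 (1 division), cycle 3 (2 divisions) and cycle 4 (3 or more). The isolated cells were labelled about 90% pure before culture, and the animals behind each experiment are not described. The 18 samples come from 2 experiments, 3 drugs and 3 cycles, which gives 6 samples per drug. Within an experiment, the cycles of each drug were gated from 1 treated culture, so each drug has 2 independent cultures. The p-values below can thus be too small, and those of changes between cycles can also be too large, as given below. Each sample is the mean of 3 technical replicates and holds 24.27 to 36.91 M reads.

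Arg C, known from the published study as argyrin C, and linezolid, an oxazolidinone antibiotic, are both known to inhibit protein synthesis on mitochondrial ribosomes. They are structurally unrelated and their doses differ. In activated T cells glucose enters through GLUT1 and GLUT3 (Slc2a1 and Slc2a3) and hexokinase phosphorylates it. Gpi1 turns the product into fructose 6-phosphate. At the end of the pathway lactate dehydrogenase, a tetramer of the Ldha and Ldhb subunits, interconverts pyruvate and lactate, and monocarboxylate transporters move lactate across the plasma membrane. Pdk1 phosphorylates and turns off pyruvate dehydrogenase, the enzyme complex that feeds pyruvate into the mitochondrial citric acid cycle. Many of these genes are known targets of the transcription factors HIF-1 and Myc.

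The cells carried the markers of their label. The summed level of the T cell genes Cd3e, Cd3d, Cd3g and Cd4 was 779 to 857 RPKM with DMSO, 623 to 827 with Arg C and 738 to 1030 with linezolid. Of the cytokine genes that define Th17 cells, Il17a had a mean of 36.2 RPKM with DMSO, 3.35 with Arg C and 4.33 with linezolid, and Il17f 171, 17.8 and 20.3 RPKM in the same order, so both had lower means with both drugs. Lists of B cell, macrophage, NK cell and red cell genes summed to at most 0.727 RPKM in any sample. The CD8 T cell genes Cd8a and Cd8b1 summed to 5.69 to 9.54 RPKM with DMSO, 4.24 to 6.80 with Arg C and 4.80 to 8.81 with linezolid, most of it Cd8b1. The 4 dendritic cell genes summed to 74.5 to 110 RPKM with DMSO, 19.6 to 34.3 with Arg C and 21.1 to 26.6 with linezolid. Of these, Cd74 had means of 9.92, 15.3 and 12.1 RPKM in the same order and H2-Ab1 went from a mean of 86.4 to 9.80 and 11.9 RPKM, while Itgax was at most 0.0151 and Flt3 at most 0.0966 RPKM in any sample. In bulk RNA, fewer cells of a type and less RNA per cell cannot be told apart.

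With either drug, 9 of the 10 genes had lower RNA levels than with DMSO and Ldhb did not. The falls were deepest for Hk2, Slc16a3, Slc2a3, Slc2a1 and Pdk1, whose mean RPKM fell 5.57-fold to 73.9-fold, and shallowest for Slc16a1, Gpi1 and Hk1. All 6 samples of a drug lay below all 6 DMSO samples for these 9 genes, as they did for 55.1% of all 11004 tested genes with Arg C and 32.8% with linezolid. At an adjusted p under 0.05 the 9 genes were called lower with Arg C (70.0% of all genes were) and with linezolid (54.5%). Ldhb was called higher with Arg C (16.5% of all genes were) and with linezolid (21.0%). Arg C moved the 10 genes by a median log2 change of -2.56 and linezolid by -2.05, beside -0.47 and -0.21 over all tested genes.

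**Figure D1:**
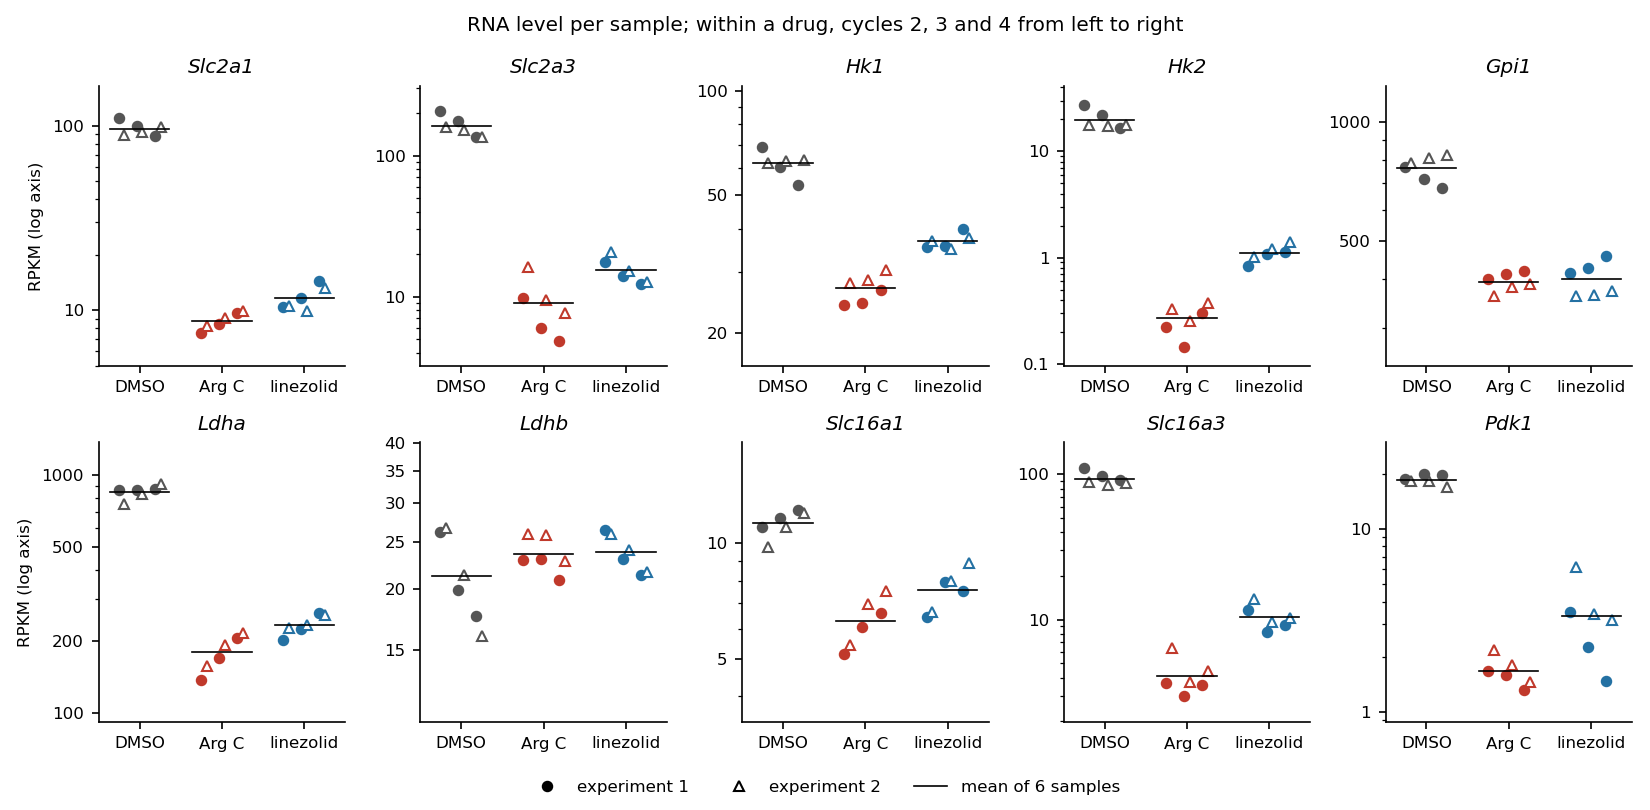
RNA level in RPKM (log axis) of the 10 genes in each of the 18 samples, by drug; circles are experiment 1, triangles experiment 2, and lines are the mean of 6 samples. For 9 genes all Arg C and linezolid samples lie below all DMSO samples, while the 3 drugs overlap for Ldhb.

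The scale of the libraries bears on the smaller of these changes. Median-ratio scaling, which sets the typical gene to no change, moved the median log2 change of all genes to 0.01 with either drug. It moved the calls over all genes from 16.5% higher and 70.0% lower to 41.9% and 41.4% with Arg C, and from 21.0% and 54.5% to 38.0% and 36.3% with linezolid. The 9 genes were still called lower and Ldhb higher with both drugs, with a median of -1.96 and -1.76. Hk1, Gpi1 and Slc16a1, the shallowest falls, are given below on both scales. When the 3 cycles were averaged to 2 units per drug, the 9 falls were called with both drugs and the rise of Ldhb was not (adjusted p = 0.147 with Arg C and 0.144 with linezolid, limma).

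**Figure D2:**
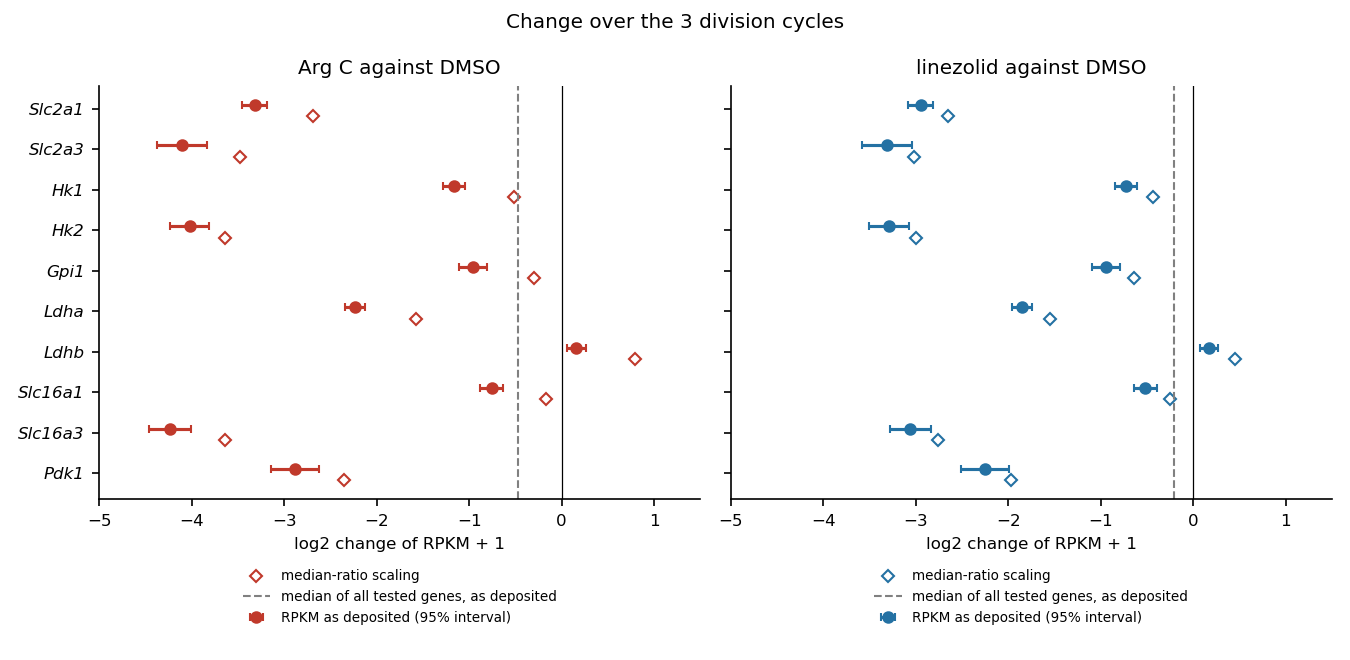
Log2 change of RPKM + 1 over the 3 cycles with Arg C (left) and linezolid (right) against DMSO; filled points with 95% intervals use the values as deposited, open diamonds median-ratio scaling, and the dashed line is the median of all tested genes. The 9 genes below 0 stay below 0 on both scales, and Ldhb lies above 0 on both.

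Slc2a1 (chr4:119108711-119137983, plus strand) encodes GLUT1, the widespread basal glucose transporter. Its level in DMSO samples ran from 88.4 to 110 RPKM with a median of 95.6, against 7.50 to 9.88 with Arg C (median 8.77) and 9.90 to 14.5 with linezolid (median 11.1). The highest treated sample thus lay far below the lowest DMSO sample, 88.4 RPKM. The mean fell 11.0-fold with Arg C and 8.23-fold with linezolid, and the log2 changes were -3.32 ± 0.06 (SE, adjusted p = 2.91e-13) and -2.95 ± 0.06 (adjusted p = 1.13e-12).

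Slc2a3 (chr6:122727809-122801640, minus strand) encodes GLUT3, a transporter with high affinity for glucose. DMSO samples held 136.0 to 208.0 RPKM (median 156.0), Arg C samples 4.85 to 16.1 (median 8.57) and linezolid samples 12.2 to 20.8 (median 14.6). With Arg C its level also varied widely among the samples themselves, highest in cycle 2 of experiment 2 and lowest in cycle 4 of experiment 1. The mean fell 18-fold with Arg C and 10.5-fold with linezolid, with log2 changes of -4.10 ± 0.13 (adjusted p = 2.23e-11) and -3.32 ± 0.13 (adjusted p = 2.5e-10).

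Hk2 (chr6:82725025-82774454, minus strand) encodes the inducible hexokinase that binds mitochondria. It fell to the lowest level of the 10 genes. DMSO samples held 16.5 to 27.5 RPKM (median 17.9), Arg C samples 0.144 to 0.373 (median 0.275) and linezolid samples 0.842 to 1.40 (median 1.10). These are 2942 to 4940 reads per DMSO sample, 25 to 63 per Arg C sample and 134 to 252 per linezolid sample. Mean RPKM fell 73.9-fold with Arg C and 17.9-fold with linezolid, and over the 6 pairs of the same experiment and cycle the fold ran from 47.8 to 154.0 and from 12.7 to 32.7. On the log2(RPKM + 1) scale, which understates falls to such low levels, the changes were -4.02 ± 0.10 (adjusted p = 3.61e-12) and -3.29 ± 0.10 (adjusted p = 3.51e-11). With the recovered reads in limma-voom and the library totals inferred from the RPKM values they were -6.23 and -4.14.

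Hk1 (chr10:62268855-62379908, minus strand), the constitutive hexokinase, fell far less. DMSO samples held 53.4 to 68.9 RPKM (median 62.4), Arg C samples 24.1 to 30.4 (median 27.2) and linezolid samples 35.0 to 39.9 (median 36.3), so the 3 drugs did not overlap. The mean fell 2.29-fold with Arg C and 1.68-fold with linezolid. The log2 changes were -1.17 ± 0.06 (adjusted p = 1.02e-09) and -0.73 ± 0.06 (adjusted p = 1.4e-07), and -0.52 and -0.44 with median-ratio scaling, where Hk1 was not called with linezolid in cycle 4 alone. An antisense gene, Hk1os, overlaps Hk1 and reached 4.19 RPKM, and the strand used in counting is not given in the sources used here, so their reads cannot be told apart.

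Gpi1 (chr7:34201330-34230336, minus strand) follows hexokinase in the pathway and was among the most abundant of the genes. DMSO samples held 682.0 to 824.0 RPKM (median 778.0), Arg C samples 361.0 to 419.0 (median 393.0) and linezolid samples 362.0 to 457.0 (median 393.0). The mean fell 1.95-fold and 1.92-fold, and the log2 changes were -0.96 ± 0.07 (adjusted p = 3.61e-08) and -0.94 ± 0.07 (adjusted p = 1.09e-07). With median-ratio scaling they were -0.29 (adjusted p = 0.0264) and -0.64 (adjusted p = 0.000182), and the call with Arg C was then lost in each cycle taken alone.

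Ldha (chr7:46841475-46855627, plus strand) encodes the lactate dehydrogenase subunit known for turning pyruvate into lactate. It was the most abundant of the genes with DMSO, at 752.0 to 912.0 RPKM (median 861.0), with 138.0 to 218.0 with Arg C (median 182.0) and 203.0 to 264.0 with linezolid (median 231.0). The mean fell 4.69-fold and 3.61-fold. The log2 changes were -2.24 ± 0.05 (adjusted p = 1.72e-12) and -1.85 ± 0.05 (adjusted p = 1.4e-11). The pseudogenes Ldha-ps, Ldha-ps2 and Ldha-ps3 are listed at 0 in all samples.

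Ldhb (chr6:142490249-142507957, minus strand) encodes the other subunit, known for favouring the turn from lactate to pyruvate. DMSO samples held 16.0 to 26.7 RPKM (median 20.7), Arg C samples 20.9 to 25.9 (median 22.9) and linezolid samples 21.4 to 26.5 (median 23.6). The 3 groups overlapped, and the spread of the DMSO samples followed their division cycle, as given below. Ldhb was called higher over all cycles by 0.16 ± 0.05 with Arg C (log2, adjusted p = 0.00571) and by 0.17 ± 0.05 with linezolid (adjusted p = 0.00431), and by 0.79 and 0.45 with median-ratio scaling. In cycles 2, 3 and 4 the changes were -0.12, 0.23 and 0.36 with Arg C and -0.01, 0.18 and 0.34 with linezolid. Of these, cycles 3 and 4 were called with Arg C and cycle 4 with linezolid. With median-ratio scaling all 3 cycles were called higher with Arg C, and cycles 3 and 4 with linezolid. It was higher than in the matching DMSO sample in 4 of 6 Arg C samples and in 5 of 6 linezolid samples. In experiment 1 alone the Arg C value was 0.08 (adjusted p = 0.429). The linezolid call was lost in experiment 1 alone (0.16) and in experiment 2 alone (0.18).

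Slc16a1 (chr3:104638668-104658462, plus strand) encodes MCT1, a lactate carrier found in most tissues, and was the least abundant of the genes with DMSO. DMSO samples held 9.79 to 12.2 RPKM (median 11.3), Arg C samples 5.15 to 7.50 (median 6.32) and linezolid samples 6.42 to 8.89 (median 7.74). The mean fell 1.79-fold and 1.49-fold. The log2 changes were -0.76 ± 0.06 (adjusted p = 5.28e-08) and -0.52 ± 0.06 (adjusted p = 3.6e-06), and -0.17 and -0.25 with median-ratio scaling. On that scale Slc16a1 was not called in cycles 3 and 4 with Arg C, nor in cycle 3 with linezolid.

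Slc16a3 (chr11:120948480-120960868, plus strand) encodes MCT4, the lactate exporter of strongly glycolytic cells. DMSO samples held 84.6 to 111.0 RPKM (median 90.0), Arg C samples 2.97 to 6.34 (median 3.68) and linezolid samples 8.18 to 13.8 (median 9.87), with no overlap among the 3 drugs. The mean fell 22.8-fold with Arg C and 8.96-fold with linezolid. The log2 changes were -4.23 ± 0.10 (adjusted p = 3.38e-12) and -3.06 ± 0.10 (adjusted p = 9.52e-11).

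Pdk1 (chr2:71873224-71903858, plus strand) held 16.9 to 19.8 RPKM in DMSO samples (median 18.5), 1.32 to 2.17 in Arg C samples (median 1.62) and 1.47 to 6.15 in linezolid samples (median 3.30). The DMSO samples were tight, and the linezolid samples were widely spread, high in cycle 2 of experiment 2 and low in cycle 4 of experiment 1. The mean fell 11.1-fold and 5.57-fold, and the linezolid fold over the 6 pairs ran from 2.95 to 13.3. The log2 changes were -2.88 ± 0.12 (adjusted p = 3.5e-10) and -2.25 ± 0.12 (adjusted p = 6.12e-09).

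The order of the levels changed with treatment. With DMSO it was Ldha, Gpi1, Slc2a3, Slc2a1, Slc16a3, Hk1, Ldhb, Hk2, Pdk1 and Slc16a1, from a mean of 848.0 to 11.3 RPKM. Neighbours whose sample ranges overlapped there were Ldha and Gpi1, Slc2a1 and Slc16a3, Ldhb and Hk2, and Hk2 and Pdk1. With Arg C and with linezolid the order began Gpi1, Ldha, Hk1 and Ldhb, and ended with Pdk1 and Hk2. Ldhb, seventh from the top with DMSO, then stood next to Hk1 at nearly the same RPKM as before, above both glucose transporters in all 6 samples of either drug. Slc2a3 and Slc2a1 overlapped with either drug.

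Each pair of related genes was compared within a sample, where a share of summed RPKM does not depend on how the library was scaled. Hk2 made up 21.8 to 28.6% of the summed hexokinase RPKM with DMSO, 0.586 to 1.21% with Arg C and 2.32 to 3.59% with linezolid. Ldha made up 96.6 to 98.3%, 85.8 to 90.8% and 88.5 to 92.5% of the lactate dehydrogenase RPKM. The 3 drugs did not overlap in the hexokinase share, and both drugs lay below DMSO in the Ldha share. Slc16a3 made up 87.9 to 91.0% of the 2 carriers with DMSO, 32.9 to 53.8% with Arg C and 50.7 to 67.6% with linezolid. The more abundant carrier by RPKM was thus Slc16a3 in all DMSO and linezolid samples and Slc16a1 in 5 of 6 Arg C samples.

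On the log2(RPKM + 1) scale the ratio of Hk2 to Hk1 differed from DMSO by -2.86 ± 0.17 with Arg C and -2.56 ± 0.30 with linezolid (mean ± SD over 6 pairs of the same experiment and cycle), and by -4.57 and -3.29 with a pseudocount of 0.1. That of Ldha to Ldhb differed by -2.40 ± 0.14 and -2.02 ± 0.19, and that of Slc16a3 to Slc16a1 by -3.48 ± 0.33 and -2.54 ± 0.28. In each of these cases all 6 pairs had the same sign, and the two-sided exact sign-flip permutation test gave p = 0.03125, the smallest 6 pairs allow (adjusted p = 0.0375 over 12 ratio comparisons). The ratio of Slc2a1 to Slc2a3 was higher in 5 of 6 pairs with each drug, by 0.78 ± 0.54 and 0.37 ± 0.34, and did not pass (exact permutation p = 0.0625, adjusted p = 0.0625). Arg C and linezolid themselves differed in all 4 ratios with the same sign in 6 of 6 pairs (exact permutation p = 0.03125, adjusted p = 0.0375). That difference was -0.29 ± 0.19 for Hk2 to Hk1 (-1.28 with a pseudocount of 0.1), -0.38 ± 0.07 for Ldha to Ldhb, -0.94 ± 0.15 for Slc16a3 to Slc16a1 and 0.41 ± 0.25 for Slc2a1 to Slc2a3. The pairs of an experiment come from the same cultures, and an exact permutation test over 2 cultures per drug could not go below p = 0.333.

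**Figure D3:**
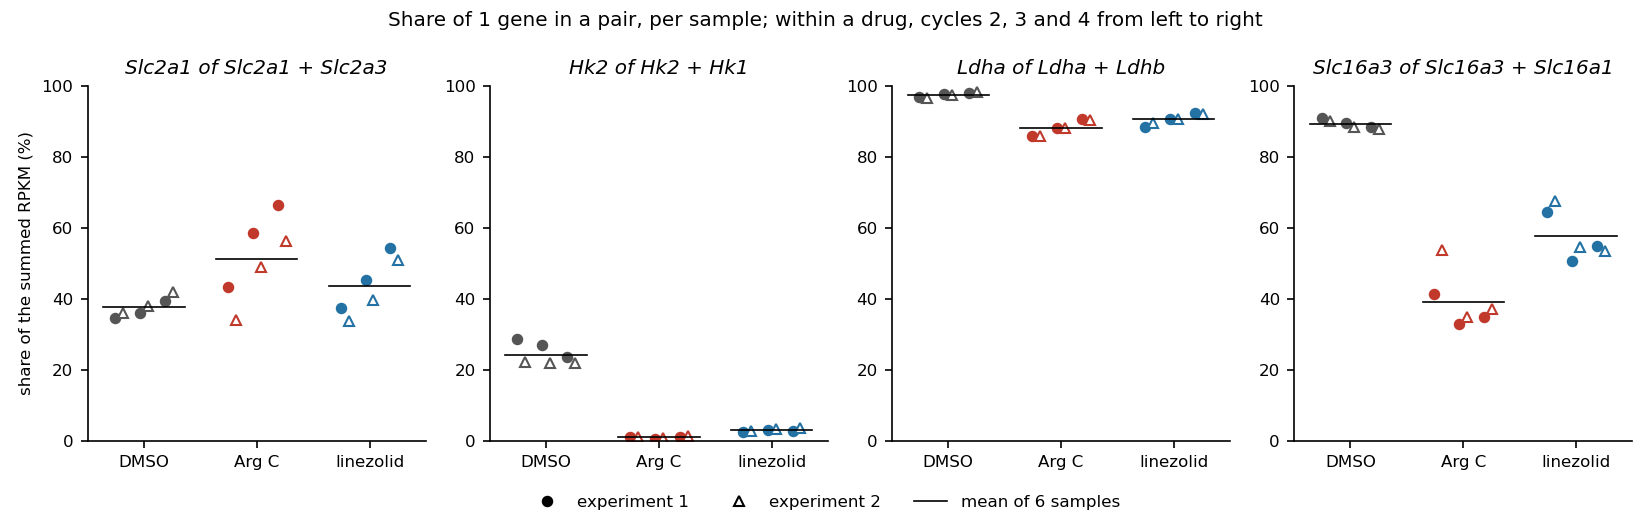
Share of 1 gene in the summed RPKM of a pair (%), per sample and drug; circles are experiment 1, triangles experiment 2, lines the mean of 6 samples, and cycles 2, 3 and 4 run from left to right within a drug. Hk2 and Slc16a3 lost share with both drugs, and the Slc2a1 share climbed with the cycle in all 6 cultures.

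The 2 drugs were used at doses that differ, and both are set against the same DMSO samples. Levels with Arg C were mostly the lower. Arg C samples were called below linezolid samples for 8 of the 10 genes, as were 59.8% of all genes. With the cycles averaged to 2 units per drug, or the culture as a random block, 7 were called and Slc16a1 was not (adjusted p = 0.138 and 0.101, limma). All 6 Arg C samples lay below all 6 linezolid samples for 4 genes, Slc2a1, Hk1, Slc16a3 and Hk2 (17.3% of all genes). On the log2(RPKM + 1) scale the difference was -1.17 ± 0.10 for Slc16a3 (adjusted p = 3.46e-06), -0.78 ± 0.13 for Slc2a3 (adjusted p = 0.000146), -0.73 ± 0.10 for Hk2 (adjusted p = 4.53e-05) and -0.63 ± 0.12 for Pdk1 (adjusted p = 0.000559). With a pseudocount of 0.1 it was -1.73 for Hk2 and -1.35 for Slc16a3, so that Hk2 then differed more. Mean RPKM of Hk2 was 4.13-fold, Slc16a3 2.54-fold and Pdk1 2.00-fold lower with Arg C than with linezolid. Without experiment 2 the Pdk1 difference was -0.40 (adjusted p = 0.0785).

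Gpi1 and Ldhb were not called between the 2 drugs. Their differences were -0.02 (95% interval -0.17 to 0.13) and -0.01 (-0.11 to 0.09). This comparison depends on the scale. With median-ratio scaling the calls over all genes went from 7.64% higher and 59.8% lower to 32.1% and 29.5%. Slc2a3, Hk2, Slc16a3 and Pdk1 were then still lower with Arg C. Slc2a1 (-0.04), Hk1 (-0.08), Ldha (-0.02) and Slc16a1 (0.08) were no longer called, and Gpi1 (0.35, adjusted p = 0.0167) and Ldhb (0.34, adjusted p = 0.000158) were called higher with Arg C.

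Taken cycle by cycle, the log2 changes of the 9 genes against DMSO were below 0 at every division stage, while some calls depended on the scale. With Arg C all 9 were called lower in cycles 2, 3 and 4 (62.7%, 63.0% and 63.5% of all genes were). With linezolid all 9 were called lower in the same cycles (37.1%, 46.0% and 44.3%). With median-ratio scaling 8, 7 and 7 were called lower with Arg C (34.7%, 35.7% and 35.1% of all genes). On that scale 9, 8 and 8 were with linezolid (25.2%, 28.7% and 28.3%). The calls lost were those of Gpi1, Slc16a1 or Hk1, as given above. On the deposited scale Arg C was called below linezolid for 8 genes in cycle 2 (48.2% of all genes), 5 in cycle 3 (33.2%) and 6 in cycle 4 (34.6%). With median-ratio scaling 3 genes were lower with Arg C and 1, Ldhb, was higher in each of the 3 cycles. On that scale 18.3%, 16% and 14.1% of all genes were lower and 19.8%, 16.3% and 14.5% higher in cycles 2, 3 and 4. The counts for Arg C against linezolid also rest on few samples. Without Arg C cycle 3 of experiment 1, 1 gene was called in cycle 3, and without either linezolid cycle 3 sample, 3 were. Without Arg C cycle 4 of experiment 1, 1 gene was called in cycle 4, and without Arg C cycle 2 of experiment 1 or linezolid cycle 2 of experiment 2, 4 were in cycle 2.

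In DMSO cells 1 of the 10 changed from cycle 2 to cycle 4 (7.67% of all genes did). This was Ldhb, at 26.2, 19.9 and 17.6 RPKM in cycles 2, 3 and 4 of experiment 1 and 26.7, 21.4 and 16.0 in experiment 2, a log2 change of -0.63 ± 0.08 (adjusted p = 0.000938). The other 9 genes had log2 changes of -0.42 to 0.20 and did not pass, and without DMSO cycle 2 of experiment 2 a count of 2 of the 10 was reached. The fit blocked on the experiment and did not pair the cycles of a culture. Differences between experiments that depend on the drug thus add to the error of cycle changes with each drug. A gene not called between cycles may therefore still change.

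With Arg C 3 of the 10 changed from cycle 2 to cycle 4 (32.0% of all genes did). Ldha went from 138.0 to 171.0 and 207.0 RPKM in experiment 1 and from 158.0 to 193.0 and 218.0 in experiment 2, a rise of 0.52 ± 0.09 (log2, adjusted p = 0.000788). Slc16a1 rose by 0.35 ± 0.10 (adjusted p = 0.0171). Slc2a3 went the other way, from 9.77 to 5.97 and 4.85 RPKM in experiment 1 and from 16.1 to 9.43 and 7.70 in experiment 2, a log2 change of -0.93 ± 0.22 (adjusted p = 0.00611). Without Arg C cycle 2 of experiment 2, 1 of the 10 was called.

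With linezolid 5 of the 10 changed from cycle 2 to cycle 4 (32.9% of all genes did). Slc2a1 (0.37 ± 0.11, adjusted p = 0.0199), Ldha (0.28 ± 0.09, adjusted p = 0.0282) and Slc16a1 (0.29 ± 0.10, adjusted p = 0.0422) rose. Pdk1 went from 3.53 to 2.25 and 1.47 RPKM in experiment 1 and from 6.15 to 3.42 and 3.18 in experiment 2, a change of -0.82 ± 0.21 (log2, adjusted p = 0.0101). Ldhb fell (-0.27 ± 0.08, adjusted p = 0.0198), and with median-ratio scaling it was not called. Leaving out either linezolid cycle 2 sample, or linezolid cycle 4 of experiment 1, left 1 call, and leaving out linezolid cycle 4 of experiment 2 left 3.

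The change from cycle 2 to cycle 4 was itself compared between drugs. Ldhb fell less with Arg C than with DMSO, by 0.48 ± 0.11 (log2, adjusted p = 0.0232), the 1 gene of the 10 called (7.92% of all genes were). That call was lost without any of 5 samples, Arg C cycle 2 or 4 of experiment 1, Arg C cycle 4 of experiment 2, DMSO cycle 2 of experiment 1 and DMSO cycle 4 of experiment 2. For linezolid against DMSO 0 of the 10 were called by limma (5.39% of all genes were), and the smallest adjusted p was that of Ldhb, 0.0847. Leaving out DMSO cycle 2 or cycle 4 of experiment 2, or linezolid cycle 4 of experiment 2, gave 1 call. For Arg C against linezolid 0 of the 10 were called, as were 0 of all genes (714 at an unadjusted p under 0.05). The share of Slc2a1 in the summed Slc2a1 and Slc2a3 RPKM climbed at each step from cycle 2 to cycle 4 in all 6 cultures, from 34.6 to 39.4% and 35.9 to 41.9% with DMSO, 43.4 to 66.4% and 33.9 to 56.2% with Arg C, and 37.4 to 54.3% and 33.7 to 50.9% with linezolid. This is a description, with no test.

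**Figure D4:**
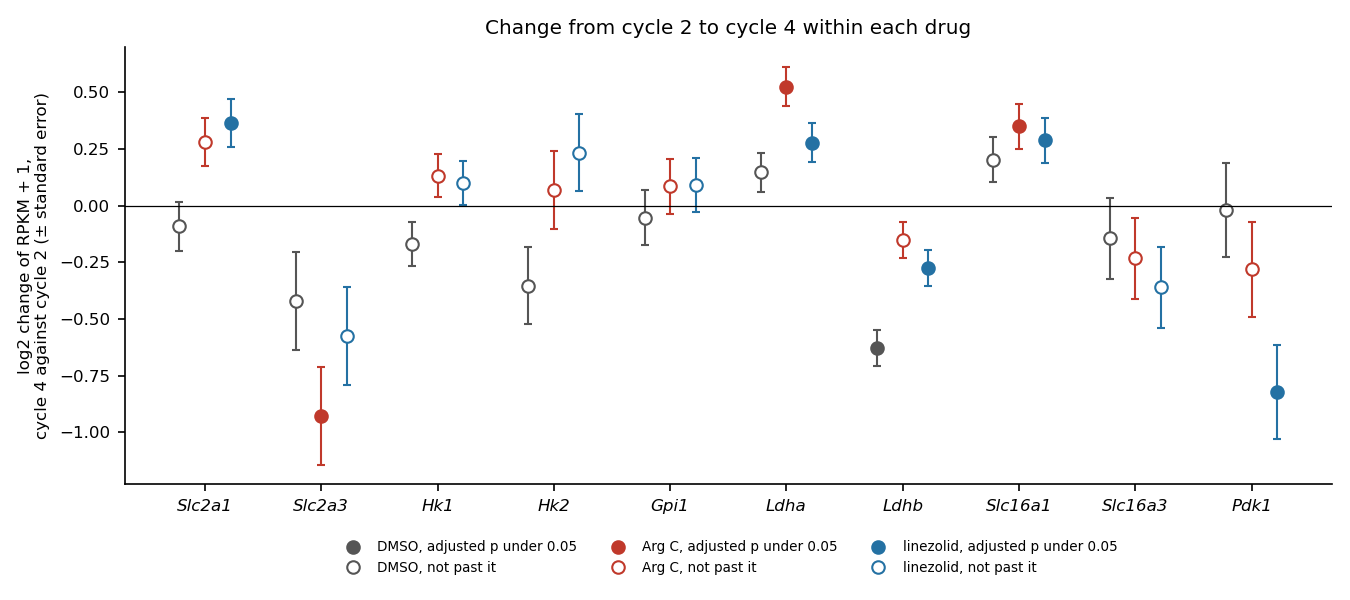
Log2 change of RPKM + 1 from cycle 2 to cycle 4 within each drug, with its standard error; filled points have an adjusted p under 0.05 over all tested genes and open points do not. Ldhb is the called gene with DMSO, while Ldha and Slc16a1 are called higher in cycle 4 with both Arg C and linezolid.

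The 2 experiments, which also differ in sequencing lane and so cannot be told apart from it, gave similar DMSO levels and less similar drug levels. Each drug had 1 culture in each experiment, and its 3 cycles served as the replicates. The p-values between experiments, here and below, thus do not measure the spread between cultures. With DMSO 1 of the 10 genes differed between experiments (9.11% of all genes did), Gpi1, higher in experiment 2 by 0.16 ± 0.04 (log2, adjusted p = 0.0409). With Arg C 5 were higher in experiment 2 and 1 was lower (46.8% of all genes differed). The largest were Slc2a3 at 0.61 ± 0.07 (adjusted p = 5.93e-05) and Slc16a3 at 0.39 ± 0.08 (adjusted p = 0.00209). With linezolid 2 of the 10 differed (56.5% of all genes did), Pdk1 at 0.62 ± 0.07 (adjusted p = 8.64e-05) and Gpi1 at -0.24 ± 0.04 (adjusted p = 0.000912). With median-ratio scaling 0, 3 and 5 of the 10 differed in the same order. Of all 11004 genes, 433 were then higher and 394 lower in experiment 2 with DMSO. With Arg C these counts were 2027 and 2343, and with linezolid 2304 and 2683.

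Within each experiment the direction against DMSO was the same for all 9 genes. The size of the fall differed between experiments for 4 of the 10 with Arg C (35.7% of all genes) and 5 with linezolid (44.3%). Slc2a3 fell 21.3-fold to 29.7-fold with Arg C across the cycles of experiment 1 and 9.97-fold to 17.7-fold in experiment 2. Pdk1 fell 5.32-fold to 13.3-fold with linezolid in experiment 1 and 2.95-fold to 5.31-fold in experiment 2. Gpi1 went the other way, 1.63-fold to 1.92-fold with Arg C in experiment 1 and 2.13-fold to 2.18-fold in experiment 2. The difference between Arg C and linezolid depended on the experiment for 2 of the 10, Slc2a3 and Pdk1 (3.41% of all genes).

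The rest of the pathway was counted from lists taken by function. The counts stand beside 70.0% of all tested genes called lower and 16.5% higher with Arg C, and 54.5% and 21.0% with linezolid. With median-ratio scaling these shares were 41.4% and 41.9%, and 36.3% and 38.0%. Of the 11 genes in the middle of glycolysis all were called lower with Arg C and with linezolid, also with median-ratio scaling, with a median log2 change of -2.62 and -2.22. Triose phosphate isomerase (Tpi1) went from 658.0 ± 33.6 RPKM (SD, n = 6) with DMSO to 48.4 ± 8.77 with Arg C and 87.8 ± 11.2 with linezolid. Enolase (Eno1) went from 1030 to 97.3 and 143.0, pyruvate kinase (Pkm) from 1290 to 211.0 and 261.0, and phosphoglycerate mutase (Pgam1) from 546.0 to 90.5 and 117.0. Over all 11 genes the log2 change with Arg C ran from -4.48 (Pfkl) to -1.18 (Pfkm), beside -0.96 for Gpi1, and their difference from Gpi1 was not tested.

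Of 11 further glucose transporters 3 passed the filter. Slc2a6 (4.67 to 1.19 and 1.79 RPKM) and Slc2a8 (6.17 to 3.34 and 3.23) fell with both drugs. Slc2a9, known mainly as a urate transporter, rose from 3.46 ± 0.33 RPKM to 4.94 ± 0.48 with Arg C and 4.58 ± 0.20 with linezolid. Among other first-step enzymes, the phosphoglucomutase Pgm2 went from 73.0 ± 3.99 to 5.23 ± 1.10 and 9.31 ± 1.98 RPKM. Adpgk, which phosphorylates glucose with ADP, went from 6.71 to 1.84 and 3.09. Pgm1 fell from 8.53 to 6.68 and 7.17, and with median-ratio scaling it was instead called higher with Arg C (0.27). G6pc3, at 15.7 RPKM with DMSO, was not called with Arg C (15.9) and fell with linezolid (13.4, log2 change -0.24, adjusted p = 0.00314). With median-ratio scaling it was called higher with Arg C (0.62) and not called with linezolid (0.04).

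Around the lactate carriers, 3 of 7 listed genes passed the filter and all 3 fell with both drugs, beside 70.0% and 54.5% of all genes. Bsg encodes basigin, the chaperone that brings MCT1 and MCT4 to the membrane, and went from 309.0 ± 22.7 RPKM to 53.1 ± 6.38 and 55.6 ± 3.21. Emb encodes embigin, a related chaperone, and went from 379.0 ± 26.7 to 201.0 ± 18.6 and 216.0 ± 21.4. The D-lactate dehydrogenase Ldhd went from 14.0 to 6.90 and 7.78. Both arrestins that limit glucose uptake also fell, Txnip from 472.0 ± 52.6 to 253.0 ± 67.5 and 382.0 ± 65.8 and Arrdc4 from 7.94 to 1.38 and 2.90. The fall of Txnip with linezolid was not called with median-ratio scaling (-0.02).

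Of the 7 genes of pyruvate entry and the pyruvate dehydrogenase complex, 2 rose and 4 fell with Arg C, and 2 rose and 3 fell with linezolid. These are shares near those over all genes (70.0% lower with Arg C and 54.5% with linezolid). Pdha1, the catalytic subunit that Pdk1 phosphorylates, rose from 67.3 ± 6.93 RPKM to 96.8 ± 6.89 and 92.5 ± 8.12, and the pyruvate carrier subunit Mpc2 from 23.0 ± 2.12 to 34.2 ± 6.04 and 28.4 ± 3.67. Dlat fell from 8.05 to 3.76 and 5.00. Pdhb fell with Arg C, from 32.0 to 17.5, and was 29.1 with linezolid, which was not called. With median-ratio scaling Arg C gave 4 higher and 3 lower of the 7, and linezolid 3 higher and 2 lower. Of the 5 tested kinases and phosphatases of the complex other than Pdk1, 4 fell with each drug. This stands beside 70.0% of all genes with Arg C and 54.5% with linezolid. With median-ratio scaling 3 fell with each drug, beside 41.4% and 36.3% of all genes. Pdk3 was 20.2 RPKM with DMSO, 12.8 with Arg C and 12.3 with linezolid, and with median-ratio scaling its log2 change with Arg C was under 0.01 and not called. Pdpr went from 8.79 to 3.60 and 4.87, Pdp1 from 2.10 to 0.644 and 1.23, and Pdp2 from 4.13 to 1.60 and 3.21. The gene called higher was Pdk2, at 9.0, 9.86 and 10.1 RPKM, named after its values were seen.

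**Figure D5:**
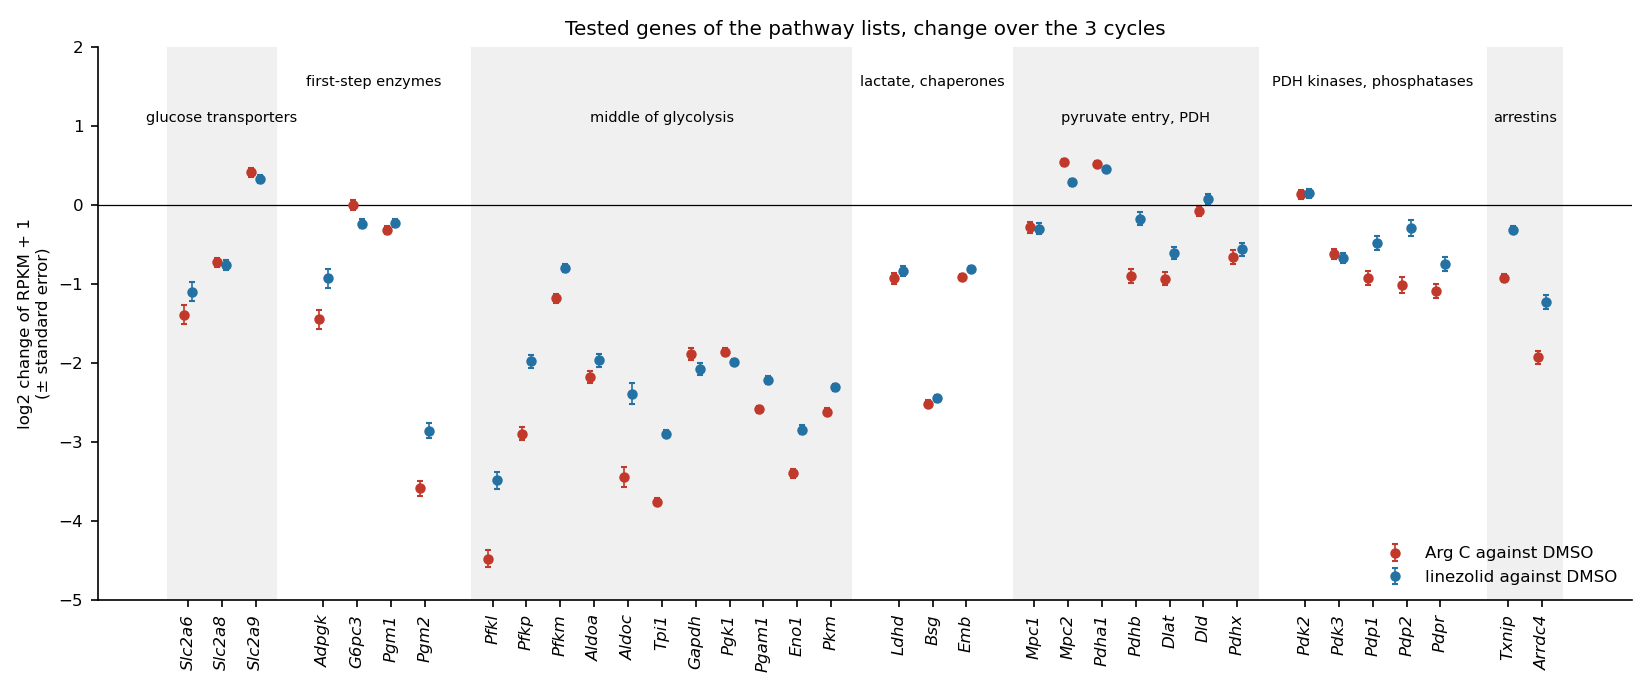
Log2 change of RPKM + 1 against DMSO, with its standard error, for tested genes of the pathway lists with Arg C and linezolid; PDH is the pyruvate dehydrogenase complex. All 11 genes of the middle of glycolysis lie below 0 with both drugs, while Slc2a9, Mpc2, Pdha1 and Pdk2 lie above 0.

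Genes with the most similar pattern were ranked by Pearson's r of log2(RPKM + 1) over the 18 samples among the 5992 tested genes whose mean reached 5 RPKM. As the samples share drug, experiment and library scale, r is a description here. Slc2a1 was most like Pkm, P4ha2 and Pgam1 (0.997 each), Itga7 (0.996) and Bsg (0.995). Slc2a3 was most like Junb and Vsir (0.993 each), Tnfrsf9 (0.992), Egln1 and Ppp1r3b (0.990 each). Hk2 was most like Hilpda, Pfkl and Tubb6 (0.995 each), Egln3 and Eno1 (0.994 each), and Hk1 like Trip10 (0.991), Aamp and Net1 (0.987 each), Bloc1s3 (0.986) and Pfkp (0.985). Egln1 and Egln3 encode oxygen sensors that mark HIF for degradation.

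At the lactate end, Ldha was most like Pgam1 (0.997), Pafah1b3 and Tpi1 (0.996 each), Seh1l and Lxn (0.995 each). Slc16a3 was most like Arrb1 (0.996), Pfkl and Irf4 (0.995 each), Egln1 and Aldoc (0.994 each), and Pdk1 like Rbm45 (0.996), Tnfrsf9 and Pank2 (0.994 each), Ust and Arrb1 (0.993 each). Slc16a1 was most like Ehd4 (0.990), Nras (0.985), Nampt (0.984), Mphosph6 (0.983) and Wdr36 (0.980). Gpi1 was most like Prelid1 (0.990), Higd1a (0.989), the class II gene H2-Ab1 named above (0.985), Jmjd6 (0.984) and Nlgn2 (0.982). The part of cell make-up in these values was not tested. Ldhb had no gene above 0.869, that of Hpcal1, followed by Pdk2 (0.847), Ephx1 (0.799), Gata3 (0.781) and H2-T22 (0.780).

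Promoter sequence is shown for 5 genes that fell and for Ldhb, which did not, with the letters of 2 well-known elements in capitals. These are ACGTG and GCGTG, the core of the hypoxia response element, and CACGTG, the E-box core, searched on both strands, so that their reverse complements CACGT and CACGC are capitals too. Each line is 120 bases 5′ to 3′ on the gene's strand, read from the RefSeq promoter table (GRCm38.p6), upstream of the RefSeq start and outside exons of the GENCODE annotation. Stretches without capitals were passed over and the one with the most was taken, so every line holds an element by choice.
Slc2a1, chr4:119108589-119108708, plus strand: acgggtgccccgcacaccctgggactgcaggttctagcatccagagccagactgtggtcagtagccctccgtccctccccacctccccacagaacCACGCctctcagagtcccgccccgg
Hk2, chr6:82774455-82774574, minus strand: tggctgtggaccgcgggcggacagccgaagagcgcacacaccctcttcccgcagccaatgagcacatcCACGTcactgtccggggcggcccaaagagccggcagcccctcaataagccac
Ldha, chr7:46845657-46845776, plus strand: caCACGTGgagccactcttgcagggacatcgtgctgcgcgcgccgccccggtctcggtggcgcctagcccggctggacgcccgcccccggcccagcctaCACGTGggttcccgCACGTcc
Slc16a3, chr11:120948933-120949052, plus strand: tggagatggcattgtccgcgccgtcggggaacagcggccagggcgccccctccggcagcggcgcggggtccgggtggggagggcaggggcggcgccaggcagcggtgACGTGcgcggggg
Pdk1, chr2:71873088-71873207, plus strand: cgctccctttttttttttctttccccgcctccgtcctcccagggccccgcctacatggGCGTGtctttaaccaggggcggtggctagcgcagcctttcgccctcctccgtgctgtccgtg
Ldhb, chr6:142508022-142508141, minus strand: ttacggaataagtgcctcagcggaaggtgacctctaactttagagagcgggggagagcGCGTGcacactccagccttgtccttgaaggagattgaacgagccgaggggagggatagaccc

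The table held 12 windows of 300 bases (250 before and 50 after the start) for 9 of the 10 genes. Of these, 9 windows held ACGTG or GCGTG, beside 43.8% of all 32851 windows (ACGTG 19.6%, GCGTG 32.4%). The Ldha window whose stretch is printed had the most, with 5 matches to ACGTG and 2 to GCGTG, counted over the whole window and so partly outside the printed letters. Each CACGTG also counts as 2 matches to ACGTG, 1 per strand. CACGTG was in 2 windows, those of Ldha and Slc16a1, beside 7.15% of all. Neither ACGTG nor GCGTG was in the Gpi1 window or in 1 of the 2 windows of Hk1 and of Pdk1. The Ldhb window also held 1 GCGTG, so these letters did not part the gene that did not fall from those that did. A match of letters is a description and not a binding site.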

How the data were processed

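The authors deposited 1 table of RPKM values for 54 libraries, 3 technical replicates of each of 18 samples. Per the submitters' processing notes, CASAVA was used with the build GRCm38.p5. The sources used here give no aligner, counter, annotation or strand setting. The library totals, 8.0 to 12.5 M reads, were inferred from genes with 1 exon, of whose values 72.5% came out whole (within 0.001 read). With these totals, 19274 of 19284 genes with any value had a length at which their values were whole reads (within 0.0001 read). Any length in a wide range could be taken, so a gene with few values can fit by chance. Of 158 genes with 1 exon checked, 122 had their annotated length. Technical replicates differed little beyond counting noise (chi-square per degree of freedom 1.04 to 1.11) and were averaged. RPKM divides by the library total, so a change in a few abundant genes shifts all others.

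Tests used limma 3.58.1 in R 4.3.3 (trended empirical Bayes) on log2(RPKM + 1) of the 11004 genes that reached 0.5 RPKM in 2 or more samples, with the 9 drug and cycle groups and the experiment as a block, 8 residual degrees of freedom and Benjamini-Hochberg adjustment over all tested genes for each of 30 contrasts (threshold 0.05). Differences between experiments came from a model with drug-by-experiment terms, in which the cycles of a culture served as replicates. An error given with ± beside a log2 change is a standard error. The fit was tested on simulated data, whose samples were independent and had few changed genes. That test could not check the p-values for cycles gated from 1 culture. Paralog ratios used an exact sign-flip permutation test over 6 pairs.

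All 10 genes are named, at most 4 tested genes of each pathway list by the smallest p for Arg C against DMSO, and the 5 most similar genes by correlation. Of the pathway and marker lists, 2 genes and the results that need them are not reported here. The members and lists were chosen with earlier results of these data known. Gene positions come from GENCODE M21 (GRCm38) and promoter windows from RefSeq (GRCm38.p6). Alternatives covered scaling, pseudocount, filter, trend, blocks, averaging of cycles, recovered reads and left-out samples.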

Additional observations from a re-analysis of the deposited data

Results flagged for a closer look

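The change against DMSO differed between the 2 experiments for several genes, by limma's test of the difference itself (log2, experiment 2 minus experiment 1, so that a positive value is a smaller fall in experiment 2). With Arg C it was 0.802 for Slc2a3 (adjusted p = 0.000251), -0.286 for Gpi1 (0.00511), 0.594 for Slc16a3 (0.00255) and 0.276 for Pdk1 (0.0436). With linezolid it was 0.325 for Slc2a3 (adjusted p = 0.0149), 0.4 for Hk2 (0.041), -0.401 for Gpi1 (0.000771), 0.391 for Slc16a3 (0.0142) and 0.743 for Pdk1 (0.000436). With median-ratio scaling Slc2a3, Gpi1 and Slc16a3 were called with Arg C, and Gpi1 and Pdk1 with linezolid, where Hk1 (-0.32) and Ldhb (-0.22) were added. The difference between Arg C and linezolid changed with the experiment by 0.477 for Slc2a3 (adjusted p = 0.026) and -0.467 for Pdk1 (0.0312). The 2 experiments were sequenced on different lanes, and the animals behind them are not described, so these cannot be told apart. With 1 culture per drug in each experiment and its cycles as replicates, these p-values do not measure the spread between cultures.

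The fall of Ldhb from cycle 2 to cycle 4 was smaller with Arg C than with DMSO by 0.478 (limma, adjusted p = 0.0232, and 0.0383 with median-ratio scaling). No sample stood apart from the other 5 of its drug in any of the 30 combinations of gene and drug by Dixon's test, which chance flags in about 1 of 20 groups.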

How the results depend on the processing

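The 9 falls against DMSO were called under each of 38 alternatives with each drug. For many alternatives, left-out samples among them, the share of all genes called is not given. Counts of calls without that share, here and above, cannot be set against a background. Of 1140 values of single genes over the alternatives, 1112 kept their side of the threshold and 19 lost it. The other 9 reversed direction with a call in at least 1 of the 2 fits. A change of sign between 2 values not called was counted among the 1112. For Arg C against linezolid, Gpi1 (-0.018) reached 0.039 and Ldhb (-0.013) reached 0.053 when samples were left out. The 9 reversed values are all Arg C against linezolid. Gpi1 was 0.35 with median-ratio scaling, 0.29 with upper-quartile rescaling and 0.32 with limma-voom on recovered reads, Ldhb was 0.34, 0.28 and 0.32, and Slc16a1 was 0.083, 0.032 and 0.065. Under each of these 3 scalings 4 genes were lower and 2 higher with Arg C, against 8 and 0. In cycle 2 of that comparison 4 genes were called with median-ratio scaling and 4 with limma-voom. With median-ratio scaling these were 3 lower and 1 higher (18.3% and 19.8% of all genes were). From cycle 2 to 3, median-ratio scaling gave 2 calls with Arg C (1 in the reported fit) and 1 with linezolid (0), and limma-voom 1 with linezolid. For Arg C that count was 0 with no filter, without trend and without the experiment block. From cycle 2 to 4 with linezolid it was 3 with no filter and 2 without the experiment block, where Ldhb by cycle was lost (0 calls). Between experiments median-ratio scaling gave 0 calls with DMSO, 3 with Arg C and 5 with linezolid, beside the counts over all genes given above. With the cycles averaged, or the culture as a random block, 0 genes were higher with either drug against DMSO, and 7 were lower for Arg C against linezolid.

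Leaving out 1 sample, technical replicate or experiment gave 0 to 1 genes higher against DMSO with each drug and 7 to 8 lower for Arg C against linezolid. Leaving out 1 sample gave 4 to 8, 1 to 7 and 1 to 6 calls for Arg C against linezolid in cycles 2, 3 and 4. From cycle 2 to 4 it gave 1 to 2 with DMSO, 1 to 4 with Arg C and 1 to 6 with linezolid, and 0 to 2 from cycle 2 to 3 with Arg C. The tests of the cycle change against DMSO gave 0 to 1 with each drug. With 1 experiment left out, 3 pairs cannot go below an exact permutation p of 0.25. The ratio of Hk2 to Hk1 was then -2.97 to -2.74 with Arg C and -2.80 to -2.33 with linezolid against DMSO, and -0.41 to -0.18 between the drugs. Ldha to Ldhb was -2.42 to -2.37, -2.07 to -1.97 and -0.40 to -0.35 in the same order, Slc16a3 to Slc16a1 was -3.66 to -3.29, -2.65 to -2.43 and -1.01 to -0.86, and Slc2a1 to Slc2a3 between the drugs was 0.27 to 0.56.

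The technical replicate numbers are lanes and did not pair samples (0 of 216 same-numbered pairs correlated above 0.1). A replicate block over all 54 libraries, which counts technical replicates as samples, moved 13 of 27 counts and left the drug comparisons over all cycles unchanged. It gave 1, 1 and 6 calls with DMSO for cycle 3 against 2, 4 against 3 and 4 against 2, 5, 2 and 8 with Arg C, and 6, 4 and 8 with linezolid. It gave 6 and 5 for the cycle change with Arg C and linezolid against DMSO, 2 between the drugs, and 8 for Arg C against linezolid in cycle 3. The share of all genes called in this fit is not given, so these counts cannot be set against a background. The planned count models (edgeR and DESeq2) were not run, since the deposited values are RPKM. Chosen after seeing the data, voom with the library totals and totals without mitochondrial and ribosomal-protein genes left the counts of the drug comparisons unchanged. Depth limits Hk2 with Arg C, which rests on 25 to 63 reads per sample. Why results change between these settings was not tested.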
